A study of Homo sapiens with 9 samples.

Results

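Of 9 RNA sequencing libraries labelled as BT549, a human breast cancer cell line without hormone receptors that is known for a mesenchymal-like state, 2 carried the epithelial adhesion gene EPCAM at more than 100 FPKM. FPKM are fragments scaled to exon length and to the mapped reads of the library, so levels are given per length. The 2 libraries are those labelled siWFDC21P-1 replicate 3, with 228 FPKM of EPCAM (16163 reads), and siNC replicate 2, with 209 FPKM (14861 reads). The highest of the other 7 libraries, siNC replicate 3, had 0.0731 FPKM (3 reads), and 4 of the 7 had no read. The 2 libraries, called the EPCAM-high libraries here, were chosen by their EPCAM level, so that level and every gene set beside it are a description, and no test was made.

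The labels give 3 libraries to each of 3 groups. Wild-type cells received siWFDC21P-1 or siWFDC21P-2, both aimed at the pseudogene transcript WFDC21P, or the control siRNA siNC. Each transfection used 5 µl of a 10 µM stock in RPMI 1640 medium with insulin and fetal bovine serum, RNA was taken after 48 h, and 1 µg went into each library. The labels do not say whether replicates were separate cultures. The EPCAM-high libraries carry different siRNAs, so what follows compares libraries and not treatments.

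WFDC21P itself had 0.227 FPKM in siWFDC21P-1 replicate 3 (7 reads) and 0.129 FPKM in siNC replicate 2 (4 reads), against 0.0629, 3.08 and 6.87 FPKM as the lowest, median and highest of the other 7 libraries. The control library siNC replicate 2 was thus no higher in the targeted transcript than the knockdown library beside it, and names below are those of the labels. The library names in the file headers come in 2 spellings, which go with 2 gene lists of 34377 and 29104 genes. The EPCAM-high libraries, siWFDC21P-1 replicates 1 and 2 and siNC replicate 1 have a hyphen after BT549 and the longer list (style A), and the 3 siWFDC21P-2 libraries and siNC replicate 3 have neither (style B). The 26636 genes in both lists were compared. Read depth was 28.1 and 28.3 M in the EPCAM-high libraries, 28.9 to 29.7 M in the other 3 of style A and 16.3 to 17.4 M in style B. Over the 13014 genes that averaged 1 FPKM or more, log2(FPKM + 1) in the EPCAM-high libraries correlated at r = 0.965 with each other and at 0.658 to 0.744 with the other 7, against 0.949 to 0.971 among the other 3 of style A and 0.927 to 0.986 within style B (Pearson, across genes, which are not independent replicates). Each set of libraries was therefore closer to itself than the EPCAM-high libraries were to either. In a bulk sample, fewer cells of a type and less RNA per cell cannot be told apart.

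The label BT549 was checked against genes of the mesenchymal state. Vimentin (VIM), the intermediate filament of mesenchymal cells, had 0.517 FPKM in siWFDC21P-1 replicate 3 and 0.699 FPKM in siNC replicate 2, against 38.5, 162 and 310.4 FPKM as the lowest, median and highest of the other 7. N-cadherin (CDH2) was listed at 0 in both EPCAM-high libraries, and also reached only 0 to 0.00698 FPKM in the other 3 libraries of style A, against 14.7 to 18.1 FPKM in style B. Vimentin was thus near 0 in the EPCAM-high libraries alone and CDH2 in all 5 of style A, while some other mesenchymal genes, given below, were present. The cells are described below by their genes and by no other name.

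Epithelial cells hold one another by E-cadherin junctions, seal the space between them with tight junctions of claudins and occludin, and anchor keratin filaments in desmosomes. Simple epithelia are known for keratins 8, 18 and 19, and the basal layer of breast and skin for keratins 5, 14 and 15. A set of transcription factors keeps this state in place and is opposed by ZEB and SNAI family repressors, which bind E-box motifs in the promoters of epithelial genes.

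A gene was called higher where the lower EPCAM-high library lay at least 1 log2 unit above the highest of the other 7 on log2(FPKM + 1), and lower where the higher one lay at least 1 unit below their lowest. By this rule 533 of the 13014 genes, those that passed the filter on low values and are counted as tested below, were higher (4.1%) and 292 (2.24%) were lower. The distance between the sets, called the gap below, reached 3 or more for 109 higher and 40 lower genes. Of the higher genes, 68 stayed under 0.1 FPKM in every one of the other 7 libraries. The 4.1% and 2.24% are the background for the counts below, but the rule that chose the libraries used this contrast, so nothing is read from a list exceeding them. The median difference over all tested genes was 0.07 log2 units.

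**Figure D1:**
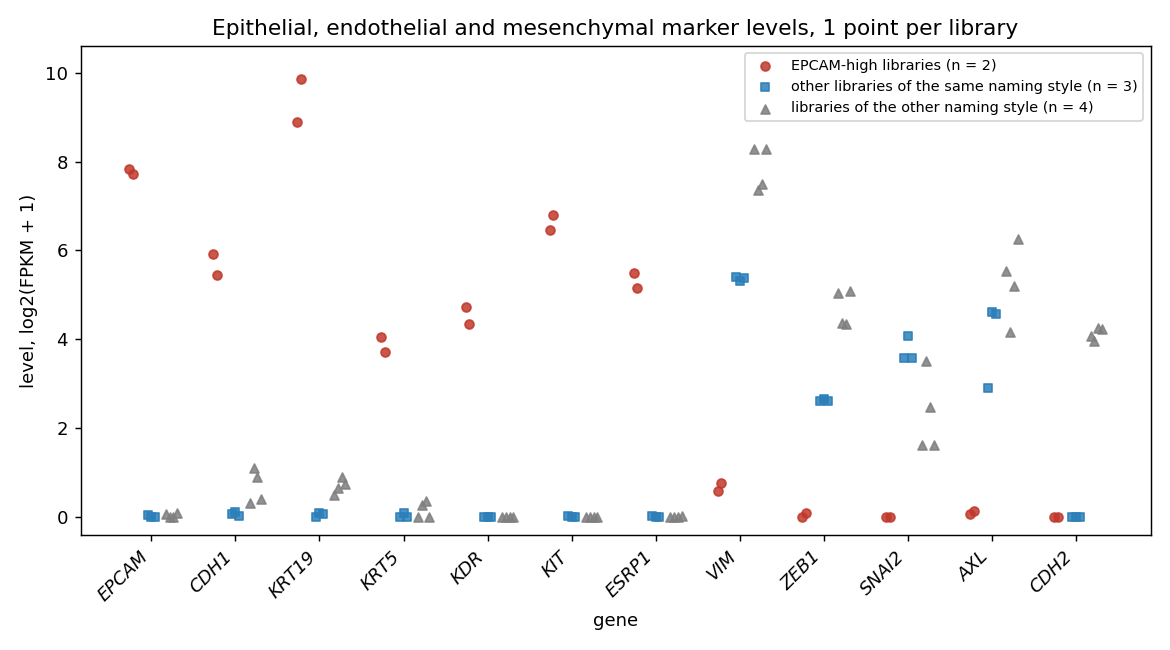
Levels of 12 lineage genes as log2(FPKM + 1), 1 point per library, with EPCAM-high libraries left, the other 3 of style A in the middle and the 4 of style B right. EPCAM, CDH1, KRT19, KRT5, KDR, KIT and ESRP1 lie high in the EPCAM-high libraries alone and VIM, ZEB1, SNAI2 and AXL are near 0 there, while CDH2 is near 0 in all 5 libraries of style A.

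Adhesion genes were high in the EPCAM-high libraries. Of 15 genes of epithelial adhesion and tight junctions, all of them measured and tested, 14 were higher, none was lower, and the median difference was 4.37 log2 units. EPCAM, which chose the libraries, is among them, and without it 13 of 14 were higher with a median of 4.17. E-cadherin (CDH1, chromosome 16, 68737225 to 68835548 in hg38) had 59.6 FPKM in siWFDC21P-1 replicate 3 and 42.7 FPKM in siNC replicate 2, against 0.0277, 0.242 and 1.16 FPKM as the lowest, median and highest of the other 7. The gap was 4.34 log2 units and the sets did not overlap. Among claudins, the strand proteins of tight junctions, CLDN3 had 193 and 163 FPKM against at most 1.73, CLDN4 had 64.7 and 66.8 FPKM against at most 1.16, and CLDN7 had 49.9 and 36.5 FPKM against at most 1.94. Occludin (OCLN) had 10.00 and 11.4 FPKM, against at most 1.39 FPKM in the other libraries. The polarity gene CRB3 had 16.4 and 16.5 FPKM, against at most 0.369, and LSR, a protein of tricellular junctions, had 50.7 and 50.3 FPKM, against at most 2.06. CLDN1 was the exception. It had 29.4 and 20.2 FPKM in the EPCAM-high libraries, against 0.0280 to 0.166 FPKM in the other 3 of style A and 99.7 to 139.9 FPKM in style B, so the EPCAM-high libraries lay between the others.

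Desmosome genes separated less, since the other style A libraries carried some of them too. Of 12 listed, 11 were in every file, 10 were tested, 3 were higher and the median difference was 2.40 log2 units. The desmosomal cadherin DSC3 had 24.8 FPKM in siWFDC21P-1 replicate 3 and 18.4 FPKM in siNC replicate 2, against 0 in the other 3 of style A and 0.584 to 1.16 FPKM in style B. DSC2 had 26.8 and 15.5 FPKM against at most 6.11 FPKM, and plakophilin 1 (PKP1) had 6.35 and 12.6 FPKM against at most 0.0673 FPKM. Desmoplakin (DSP), which ties keratin filaments to the plaque, had 78.2 and 65.6 FPKM in the EPCAM-high libraries, close to the 44.8 to 53.0 FPKM of the other style A libraries and above the 0.655 to 1.34 FPKM of style B. Plakoglobin (JUP) had 57.8 and 60.6 FPKM, against 61.8 to 104 FPKM in the other style A libraries and 1.04 to 3.58 FPKM in style B. DSP and JUP therefore divided style A from style B and not the EPCAM-high libraries from the rest.

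Keratins showed the same layering. Of 9 genes listed as simple keratins 7 were tested and 3 were higher, with a median difference of 2.34 log2 units. The 3 were KRT19, KRT81 and KRT86, of which only KRT19 is among the keratins of simple epithelia named above. KRT7 was not called, with 76.1 FPKM in siWFDC21P-1 replicate 3 and 129 FPKM in siNC replicate 2, against 8.64 to 107 FPKM in the other 7. KRT19 (chromosome 17, 41523617 to 41528308, minus strand) had the widest gap of all tested genes, 7.99 log2 units, with 474 FPKM in siWFDC21P-1 replicate 3 and 925 FPKM in siNC replicate 2, against 0, 0.418 and 0.872 FPKM as the lowest, median and highest of the others. KRT81, a hair keratin that breast tumours can express, had 61.8 and 107 FPKM against at most 2.92. Its neighbour KRT86 had 4.96 and 4.93 FPKM against at most 1.57. The span of KRT86 overlaps that of KRT81, their sequences are alike and strand handling is not given in the sources used here, so reads of the pair may be shared. KRT8 and KRT18, which form the simple epithelial filament together, did not separate the sets. KRT8 had 135 and 293 FPKM in the EPCAM-high libraries, against 93.4 to 232 FPKM in the other style A libraries and 3.99 to 5.44 FPKM in style B. KRT18 had 53.8 and 90.6 FPKM, against 80.4 to 151 FPKM in the other style A libraries and 1.79 to 3.07 FPKM in style B.

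Of 13 basal and stratified keratins, 7 were in every file and 6 in the style A files only. Of the 5 tested, 3 were higher and the median difference was 2.70 log2 units. KRT5 (chromosome 12, 52514575 to 52520687, minus strand) had 15.7 FPKM in siWFDC21P-1 replicate 3 (1891 reads) and 12.1 FPKM in siNC replicate 2 (1466 reads), against 0, 0 and 0.298 FPKM as the lowest, median and highest of the others. Its partner KRT14 had 19.3 and 8.63 FPKM against at most 0.0255 FPKM, and KRT15 had 8.93 and 4.26 FPKM against at most 0.586 FPKM. All 3 basal keratins were thus present at a fraction of the KRT19 level, and no other library reached them. KRT17, a keratin of basal-like tumours and of injured skin, had 6.60 and 7.79 FPKM in the EPCAM-high libraries but 2.98 to 22.8 FPKM in the other style A libraries, so these sets overlapped. KRT10, a keratin of differentiating epidermis, had 3.45 and 7.995 FPKM, overlapping the 6.06 to 10.8 FPKM of the other 7.

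**Figure D2:**
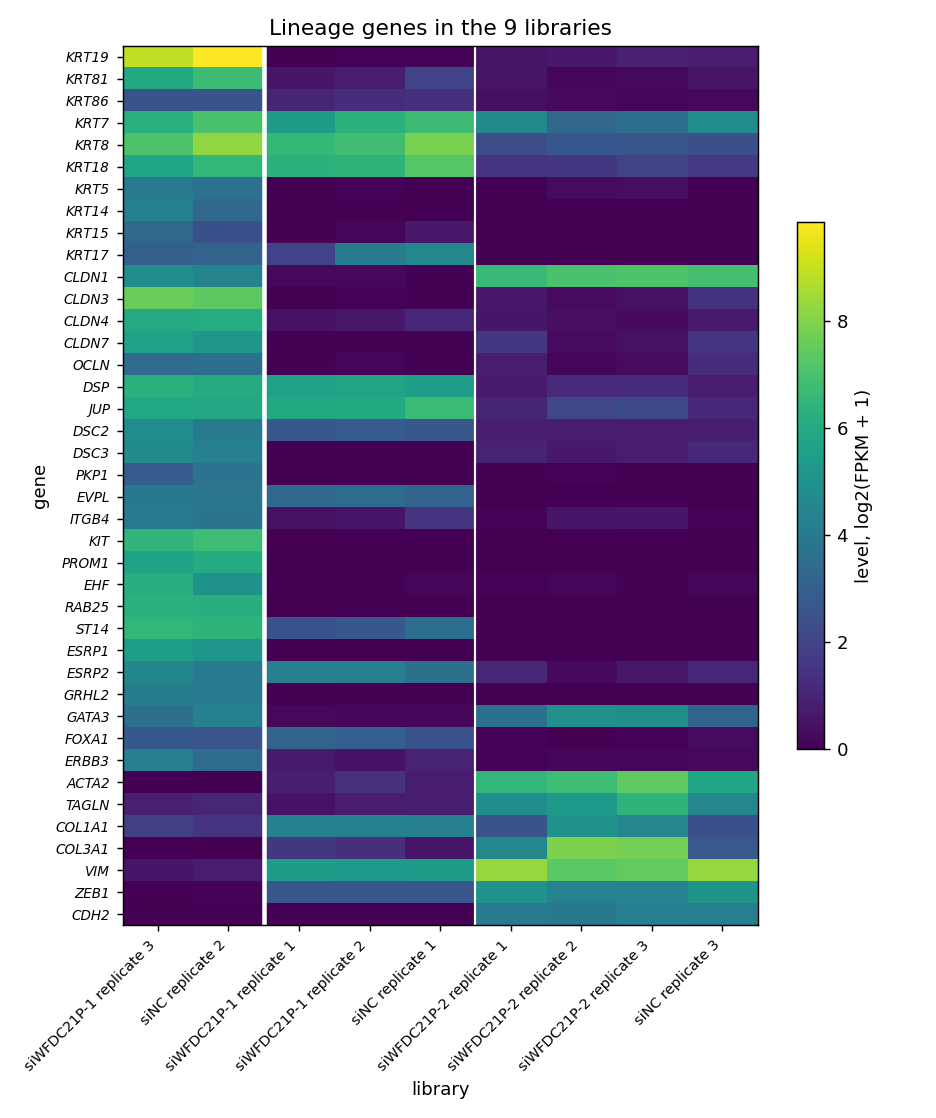
Levels of 40 lineage genes as log2(FPKM + 1) in each library, EPCAM-high libraries in the left columns, then the other 3 of style A and the 4 of style B, with white lines between the sets. KRT19, CLDN3, KIT and RAB25 are bright in the EPCAM-high columns alone, KRT8, KRT18, DSP and JUP in all style A columns, and VIM, ZEB1 and ACTA2 are dark in the EPCAM-high columns.

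Basal-like breast and basement membrane genes were mixed. Of 25 listed, 18 were in every file, 16 were tested, 3 were higher, none was lower and the median difference was 1.40 log2 units. The receptor tyrosine kinase KIT, a marker of luminal progenitors, had 86.5 FPKM in siWFDC21P-1 replicate 3 and 109 FPKM in siNC replicate 2, against at most 0.0186 FPKM (3 reads) elsewhere. PROM1, the CD133 surface protein, had 52.0 and 65.6 FPKM against at most 0.0241 FPKM. Integrin beta 4 (ITGB4), part of hemidesmosomes, had 15.4 and 12.9 FPKM against at most 1.80 FPKM. LAMA3 and CDH3 were not called. LAMA3, the laminin alpha chain that hemidesmosomes bind, had 0.418 and 0.267 FPKM, against 1.45 to 7.45 FPKM in the other 7. P-cadherin (CDH3), next to CDH1 on chromosome 16, had 27.7 and 19.4 FPKM, against at most 0.0548 FPKM in the other style A libraries and 6.79 to 19.1 FPKM in style B. Myoepithelial genes were mostly low, and 4 of the 6 in every file were under 1 FPKM in both EPCAM-high libraries. Of the 7 listed 4 were tested and none was called, and the median difference was -2.51. Smooth muscle actin (ACTA2) had 0 and 0.0238 FPKM, against 0.689 to 1.62 FPKM in the other style A libraries and 56.1 to 167 FPKM in style B. OXTR had 0.197 and 0.125 FPKM, against 0.167 to 0.574 FPKM in the other style A libraries and 17.2 to 38.6 FPKM in style B. TAGLN had 0.808 and 1.06 FPKM, against 0.397 to 0.759 FPKM in the other style A libraries and 22.8 to 84.2 FPKM in style B. Of the 4 tested, only MME had a positive difference. MME, the surface peptidase CD10, made up most of the list's 19.8 to 26.8 FPKM in the EPCAM-high libraries, with 18.6 and 25.2 FPKM against 27.5 to 40.1 FPKM in the other style A libraries and 1.00 to 7.78 FPKM in style B.

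Luminal genes were present in part. Of 13 listed, 8 were tested, 2 were higher and the median difference was 0.90 log2 units. The receptor ERBB3 had 17.9 FPKM in siWFDC21P-1 replicate 3 and 9.81 FPKM in siNC replicate 2, against at most 0.964 FPKM, and the ETS factor SPDEF had 3.36 and 5.84 FPKM against at most 0.106 FPKM. The luminal factor GATA3 had 11.5 and 19.3 FPKM, against 0.0946 to 0.159 FPKM in the other style A libraries and 7.98 to 30.0 FPKM in style B. FOXA1, which opens chromatin for the oestrogen receptor, had 5.49 and 5.08 FPKM, within the 4.65 to 7.68 FPKM of the other style A libraries. The oestrogen receptor gene ESR1 was low, with 0.848 and 0.589 FPKM against at most 0.0767 FPKM. XBP1, a factor of secretory cells, had 16.9 and 14.4 FPKM, under the 27.4 to 96.3 FPKM of the other 7.

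Regulators of the epithelial state were the other list with most members higher. Of 21 listed, 19 were in every file, 18 were tested, 16 were higher and the median difference was 4.03 log2 units. The splicing factor ESRP1, which sets epithelial exon choice, had 44.3 FPKM in siWFDC21P-1 replicate 3 and 34.6 FPKM in siNC replicate 2, against at most 0.0252 FPKM. Its paralogue ESRP2 did not separate the sets, with 21.7 and 15.8 FPKM against 11.4 to 17.6 FPKM in the other style A libraries. The Grainyhead factor GRHL2, which activates CDH1 and claudin genes, had 16.7 and 15.8 FPKM against at most 0.0445 FPKM. The ETS factor EHF had 73.4 and 32.1 FPKM against at most 0.0954 FPKM. RAB25, a GTPase of apical recycling, had 78.2 and 74.4 FPKM against at most 0.0361 FPKM, and AP1M2, the epithelial adaptor subunit for basolateral sorting, had 218 and 259 FPKM against at most 14.3 FPKM. The membrane protease ST14 and its inhibitor SPINT1 were high together, ST14 with 90.4 and 84.8 FPKM against at most 10.9 FPKM and SPINT1 with 44.0 and 58.9 FPKM against at most 0.0869 FPKM.

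The opposing repressors were low. ZEB1 had 0.00823 FPKM in siWFDC21P-1 replicate 3 (2 reads) and 0.0735 FPKM in siNC replicate 2 (18 reads), against 5.14, 19.4 and 33.1 FPKM as the lowest, median and highest of the other 7. ZEB2 had 0.00300 FPKM and 0, against 0.981 to 1.98 FPKM, and SNAI2 was at 0 in both, against 2.07 to 16.01 FPKM. ZEB1 is known to repress, and to be repressed by, the miR-200 microRNAs, whose 2 seed groups are shown because hairpins of both had reads in the EPCAM-high libraries. Mature sequences (RefSeq, GRCh38.p14) run from the 5′ end, with the seed, bases 2 to 8, in capitals. The 2 seed groups differ at 1 seed base, and hairpins of both lie on chromosome 1 and on chromosome 12.
hsa-miR-200a-3p: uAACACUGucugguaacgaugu
hsa-miR-141-3p: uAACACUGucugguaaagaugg
hsa-miR-200b-3p: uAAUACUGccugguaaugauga
hsa-miR-200c-3p: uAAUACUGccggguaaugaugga
hsa-miR-429: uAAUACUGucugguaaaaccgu
The hairpins on chromosome 1 were detected in both EPCAM-high libraries. MIR200B had 14.6 and 13.0 FPKM (39 and 35 reads) against at most 1.21 FPKM, and MIR429 had 35.6 and 22.6 FPKM (83 and 53 reads) against at most 0.739 FPKM. MIR200A, listed in the style A files only, had 21.0 and 13.7 FPKM against 0 in the other 3. On chromosome 12, MIR200C had 2.62 and 2.60 FPKM on 5 reads each, and MIR141 was at 0 in the 5 style A libraries. Libraries of this kind do not measure mature microRNAs, and reads on such short annotations may come from their longer primary transcripts, which was not tested.

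E-box motifs bound by ZEB and SNAI repressors read CAGGTG, or CACCTG on the other strand. Of promoter windows reaching from 250 bases before to 50 bases after a gene start (RefSeq, GRCh38.p14), 20.6% of all 35116 held at least 1 such motif on either strand, as did 18.2% of 13713 windows of tested genes. The share was 31.0% of 536 windows of genes called higher (362 of 533 genes matched by symbol) and 14.5% of 358 windows of genes called lower (213 of 292 matched). Windows with 3 or more motifs made up 2.24% of the windows of higher genes, against 0.35% of those of tested genes. These shares describe letters in windows, and whether a factor binds there was not tested. They count windows and not genes, and the called genes come from the contrast that chose the libraries. Nothing is therefore read from the difference between the shares. CRB3, CLDN7, AP1M2 and RAB25, all called higher above, are shown as examples with 5, 5, 3 and 2 motifs, chosen after their motifs had been counted, with each motif in capitals and the gene's own strand 5′ to 3′ (CRB3 chr19:6464021-6464320, plus strand; CLDN7 chr17:7262429-7262728, minus strand; AP1M2 chr19:10587263-10587562, minus strand; RAB25 chr1:156060910-156061209, plus strand).
CRB3: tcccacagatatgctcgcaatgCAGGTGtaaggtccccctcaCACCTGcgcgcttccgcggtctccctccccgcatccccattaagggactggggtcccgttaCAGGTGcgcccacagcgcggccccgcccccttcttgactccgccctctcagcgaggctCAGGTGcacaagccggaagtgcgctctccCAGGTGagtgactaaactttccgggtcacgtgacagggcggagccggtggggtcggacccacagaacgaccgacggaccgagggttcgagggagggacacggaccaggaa
CLDN7: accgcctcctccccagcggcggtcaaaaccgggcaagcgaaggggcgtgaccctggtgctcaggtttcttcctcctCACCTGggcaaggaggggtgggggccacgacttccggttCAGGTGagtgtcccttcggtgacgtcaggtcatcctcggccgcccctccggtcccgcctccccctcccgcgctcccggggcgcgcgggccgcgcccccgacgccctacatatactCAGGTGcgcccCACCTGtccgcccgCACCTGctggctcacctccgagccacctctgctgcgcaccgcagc
AP1M2: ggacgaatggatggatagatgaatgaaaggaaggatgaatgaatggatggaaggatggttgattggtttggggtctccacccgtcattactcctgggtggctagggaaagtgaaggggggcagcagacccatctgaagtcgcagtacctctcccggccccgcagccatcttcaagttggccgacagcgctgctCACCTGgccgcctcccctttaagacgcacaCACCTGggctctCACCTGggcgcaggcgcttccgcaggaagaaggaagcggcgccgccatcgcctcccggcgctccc
RAB25: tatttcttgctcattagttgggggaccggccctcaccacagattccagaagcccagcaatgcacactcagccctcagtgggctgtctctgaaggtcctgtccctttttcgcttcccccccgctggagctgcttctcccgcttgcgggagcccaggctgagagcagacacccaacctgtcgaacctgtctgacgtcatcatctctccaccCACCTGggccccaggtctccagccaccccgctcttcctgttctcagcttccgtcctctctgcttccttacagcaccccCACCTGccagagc
In CRB3 all 5 motifs lie upstream of the gene start, and no motif overlaps another in these 4 windows. CLDN7 has 2 windows, of which 1 is shown. The promoter source used had no entry for CDH1, EPCAM or KRT19, so their windows were not read.

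The widest gaps above, outside the lists, belonged to genes of several kinds. CASP14, a caspase of the cornified layer of skin, had 146 FPKM in siWFDC21P-1 replicate 3 and 306 FPKM in siNC replicate 2, against at most 0.115 FPKM. LCN2, an iron-siderophore binding protein of mucosal defence, had 118 and 147 FPKM against at most 0.288 FPKM. S100A14 had 216 and 144 FPKM against at most 1.23 FPKM, and CRABP2, a retinoic acid carrier, had 548 and 941 FPKM against at most 15.5 FPKM. FOXI1, a factor of ion-transporting cells, had 82.2 and 107 FPKM against at most 1.58 FPKM. ATP6V1B1, a proton pump subunit that FOXI1 is known to activate in kidney and named here after its value was seen, had 43.8 and 88.3 FPKM against at most 1.23 FPKM. STAC2, SLC1A6, SOSTDC1, MACROH2A2 and COL14A1 were also among the 20 widest, and their gaps ran from 4.94 for COL14A1 to 5.96 for STAC2.

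Mesenchymal genes were not uniformly low. Of 17 listed, 16 were in every file and tested, 4 were lower (VIM, ZEB1, AXL and SNAI2), none was higher and the median difference was -1.64. The receptor tyrosine kinase AXL had 0.0552 FPKM in siWFDC21P-1 replicate 3 and 0.0960 FPKM in siNC replicate 2, against 6.53, 23.5 and 76.0 FPKM as the lowest, median and highest of the other 7. S100A4, also used as a mesenchymal marker, had 132 and 312 FPKM, inside the range of 8.56 to 467 FPKM of the others. Moesin (MSN) had 108 and 83.5 FPKM, against 58.8 to 122 FPKM. Fibronectin (FN1) had 5.91 and 11.2 FPKM, against 1.45 to 9.13 FPKM. The low level of vimentin in the EPCAM-high libraries was therefore not shared by these 3, which were named after their values were seen. Of the 16 genes, 9 were under 1 FPKM in both EPCAM-high libraries, and 2 of these were at 0 in both.

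On the lower side the widest gaps belonged to genes of several kinds. BASP1, a membrane-bound phosphoprotein, had the widest gap below, 6.89 log2 units, with 0.0481 and 0.0638 FPKM (3 and 4 reads) in siWFDC21P-1 replicate 3 and siNC replicate 2, against 125, 200.2 and 334 FPKM as the lowest, median and highest of the others. SERPINH1, the collagen chaperone HSP47, had 0.0652 and 0.00719 FPKM against at least 106 FPKM, and FKBP10, a prolyl isomerase of collagen folding, had 0.225 and 0.0744 FPKM against at least 63.1 FPKM. COL5A2, a fibrillar collagen chain, had 0.343 and 0.0741 FPKM against at least 23.1 FPKM, and FBLN2, a matrix glycoprotein, had 0.0370 and 0.00734 FPKM against at least 17.9 FPKM. The immune ligand CD70 had 0.0464 and 0.115 FPKM against 48.5 to 70.7 FPKM, a narrow range among the others. NNMT, a nicotinamide methyltransferase, had 0.414 and 0.860 FPKM against at least 33.2 FPKM, and TPM2, a tropomyosin of contractile filaments, had 2.93 and 2.39 FPKM against at least 51.6 FPKM. NEK9, a mitotic kinase, had 0.129 and 0.115 FPKM against 10.7 to 14.7 FPKM in the other 7.

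**Figure D3:**
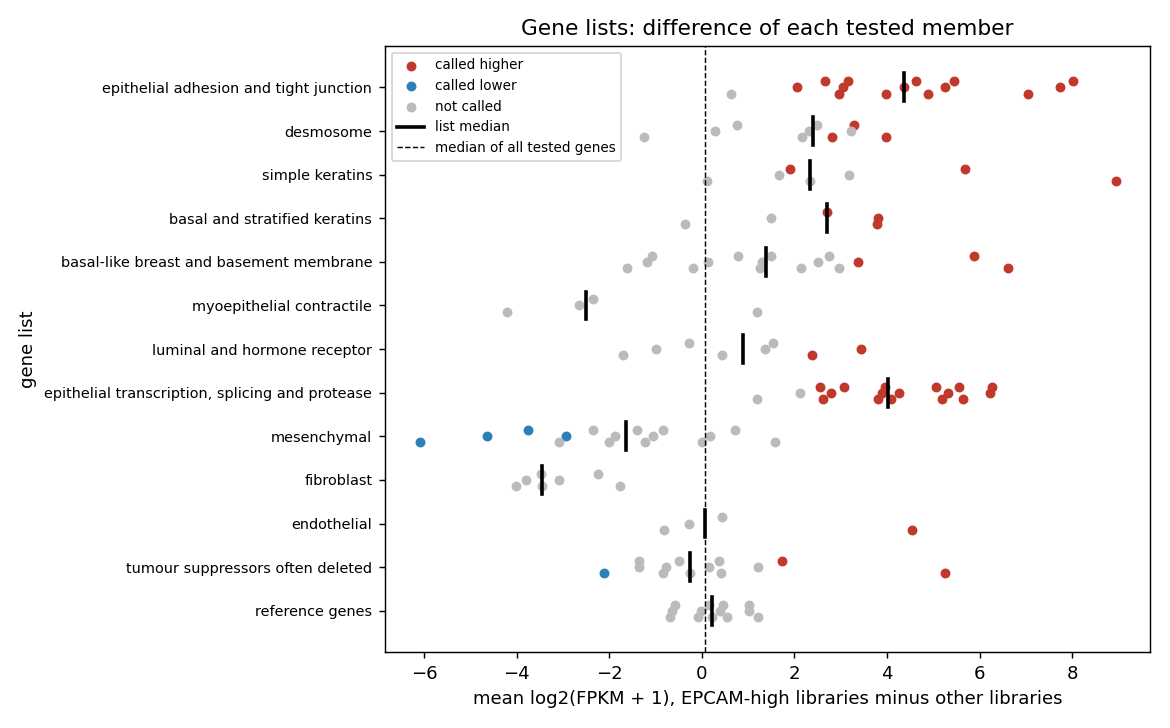
Mean log2(FPKM + 1) of the EPCAM-high libraries minus that of the other 7 for each tested member of 13 gene lists, with list medians as bars and the median of all tested genes, 0.07, as a dashed line. Members of the adhesion and regulator lists lie furthest right, with medians of 4.37 and 4.03, and the fibroblast and myoepithelial medians lie at -3.45 and -2.51 without a called member.

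KDR, the VEGF receptor that marks endothelium, was high beside endothelial genes of mixed level. It had 25.7 FPKM in siWFDC21P-1 replicate 3 (4738 reads) and 19.4 FPKM in siNC replicate 2 (3609 reads), against a single read in the other 7 libraries together. Of 16 endothelial genes 14 were in every file, 4 were tested and only KDR was called. The 14 genes summed to 44.7 to 46.4 FPKM in the EPCAM-high libraries, against 13.9 to 39.5 FPKM. KDR alone gave 25.7 and 19.4 FPKM of these sums, so they do not show the other endothelial genes to be higher. ENG, a TGF-beta coreceptor, had 12.03 and 12.8 FPKM against 10.5 to 21.9 FPKM, and EGFL7, a secreted vascular factor, had 5.34 and 8.54 FPKM against 1.97 to 12.01 FPKM, both inside the range of the others. ERG and EMCN were at 0 in both EPCAM-high libraries, the endothelial cadherin CDH5 had 0 and 0.0296 FPKM, and PECAM1 had 0.312 and 0.592 FPKM. KDR lies on chromosome 4 (55078259 to 55125595) beside KIT (54657918 to 54740715), and both were high here alone. The nearest other expressed genes on either side were not called, with CHIC2 at 9.18 and 7.86 FPKM against 4.44 to 13.9 FPKM and SRD5A3 at 4.00 and 4.27 FPKM against 1.86 to 3.40 FPKM. Further out, NMU, which encodes the peptide neuromedin U, was called higher with 21.3 and 20.4 FPKM against at most 0.239 FPKM. PDGFRA, the third receptor gene of that locus, had 0.417 and 0.105 FPKM against 0 to 1.51 FPKM.

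Other cell types were looked for in the same way. Of 11 leukocyte genes 7 were in every file and 1 was tested, the monocyte coreceptor CD14, which was called higher, with 29.6 and 36.1 FPKM against 0.322 to 8.70 FPKM. It made up most of the list's summed 31.7 to 38.7 FPKM in the EPCAM-high libraries (0.561 to 9.89 FPKM in the others), while the pan-leukocyte gene PTPRC was at 0 in both. Of 12 fibroblast genes 7 were tested and none was called, since for each the lowest of the other 7 lay within 1 log2 unit. Their sum was 3.80 to 5.91 FPKM in the EPCAM-high libraries, against 64.3 to 798 FPKM in the others, and COL1A2, COL3A1 and LUM were at 0 in both. Squamous genes had 2 of 12 in every file and summed to 3.33 to 5.55 FPKM, against 0.793 to 3.09 FPKM. The sums cover genes in every file, and 3 more squamous genes were in the style A files only. Genes of the style A files only, such as CALML5 and KLK10, do not enter the sums. CALML5 had 16.4 and 76.2 FPKM, against at most 0.0398 FPKM in the other style A libraries. KLK10 had 4.69 and 7.64 FPKM against 0. Intestinal genes (3 of 8 in every file) summed to at most 0.111 FPKM in the EPCAM-high libraries and 0.172 FPKM in the others, and hepatic genes (3 of 8) to at most 0.744 and 0.519 FPKM. Of 13 reference genes none was called, with a median difference of 0.21 log2 units.

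Some genes gave no read at all in the EPCAM-high libraries. Of 9447 genes with at least 1 FPKM in each of the other 7, 30 (0.318%) were at 0 FPKM in both, and 71 (0.752%) were at 0.05 FPKM or less. By the same rule 105 of 9685 genes (1.08%) were at 0 in the other 3 libraries of style A, and 0 of 9946 in the 4 of style B. The count is thus not larger than in the neighbouring set, and the number of libraries and their depth enter into it. For each absent gene a bound follows from 3 reads in the shallower of the 2 libraries. DAB2, an endocytic adaptor, was at least 1432-fold lower than in the lowest of the others, 19.8 FPKM. UBN1, of the HIRA histone chaperone complex, was at least 835-fold lower, EDIL3, an integrin ligand, at least 595-fold lower, and ANKS6, a ciliary protein, at least 399-fold lower. The orphan receptor NR2F2 was at least 263-fold lower, LDOC1 at least 115-fold lower and RAB32, a GTPase of melanosome and mitochondrial traffic, at least 119-fold lower. These bounds cover counting error only.

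Most absent genes lay among expressed neighbours. For 21 of the 30, the nearest gene on each side that the other 7 libraries expressed at 1 FPKM or more also had at least 1 FPKM in both EPCAM-high libraries, for 4 only 1 side did, and for 5 neither did. DAB2 for example sat between RICTOR, with at least 3.40 FPKM in both EPCAM-high libraries, and TTC33, with at least 1.13 FPKM. SNAI2 sat between UBE2V2, with at least 11.9 FPKM, and PCMTD1, with at least 3.06 FPKM. The same share over all 9447 genes is not given here, so nothing is read from the 21 of 30. By chromosome, 6 of the 30 were on chromosome 16 and 3 on chromosome X, which held 588 and 434 of the 13014 tested genes. Of the 71 genes at 0.05 FPKM or less, 11 were on chromosome 16, 9 of them in the stretch described below. Chromosome 11 had 7, and chromosomes 5, 9 and X had 6 each. Chromosomes 11, 5 and 9 held 725, 603 and 553 tested genes. How the 9447 genes divide by chromosome is not given here, so nothing is read from these counts.

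Of the 5 absent genes with no such neighbour, UBALD1, NUDT16L1, ANKS3 and ZNF500 were close together on chromosome 16, and TCEAL9 was on chromosome X. Only NUDT16L1, ANKS3 and ZNF500 (4693694 to 4767624) made a stretch of 3 or more genes in a row, among those that the other 7 express at 1 FPKM or more, with no read in either library. With up to 0.05 FPKM allowed, a limit wider than that of the rule, the stretch grew to 9 genes and another of 4 appeared on chromosome X. Such runs were not particular to the EPCAM-high libraries. By the same rule the other 3 libraries of style A had 5 stretches at 0 FPKM, the longest of 4 genes. At 0.05 FPKM or less they had 6, the longest of 7 genes. The 4 libraries of style B had 0 at either limit. On chromosome 16, in order, CDIP1, UBALD1, MGRN1, NUDT16L1, ANKS3, ZNF500, ROGDI, GLYR1 and UBN1 span 4510675 to 4882360 (371686 bases), and they are the 9 genes there that the other 7 libraries express at 1 FPKM or more. UBALD1, NUDT16L1, ANKS3, ZNF500 and UBN1 had no read in either EPCAM-high library, and the other 4 had at most 0.0333 FPKM. GLYR1, a nucleosome-binding cofactor, had 0 and 0.00646 FPKM (1 read) against 12.2, 27.5 and 32.8 FPKM as the lowest, median and highest of the others. MGRN1, a ubiquitin ligase, had 0.00348 FPKM (1 read) and 0, against 7.55 to 10.5 FPKM. All 19 genes listed inside the span together had 6 and 5 reads, against 7388 to 16472 reads in the other libraries. The edges differed. On the left, HMOX2, the constitutive haem oxygenase, had 1.61 and 0.885 FPKM against 14.9 to 28.3 FPKM. Its span overlaps that of NMRAL1, which had 12.7 and 9.27 FPKM against 11.05 to 24.6 FPKM, so reads of the pair may be shared. On the right, periplakin (PPL), a desmosomal plaque gene from the list above, was at 0 in both against 0.580 to 2.09 FPKM, and beyond it NAGPA had 1.60 and 3.43 FPKM against 2.73 to 5.96 FPKM.

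**Figure D4:**
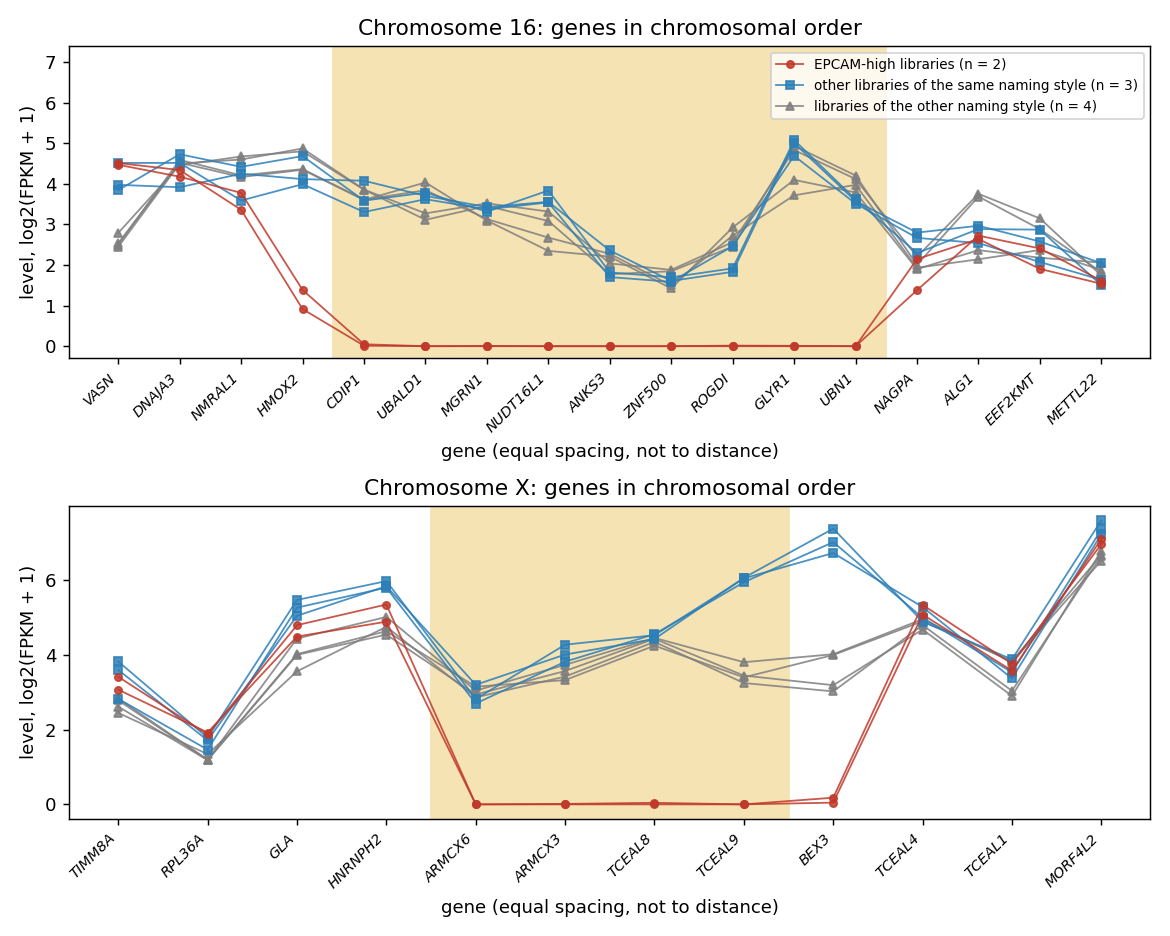
Levels as log2(FPKM + 1) of genes in chromosomal order around the chromosome 16 stretch (upper panel) and the run on chromosome X (lower panel), 1 line per library, with the genes at 0.05 FPKM or less in both EPCAM-high libraries shaded. The EPCAM-high lines lie at or near 0 across the shaded genes and return to the level of the other lines at NAGPA and at TCEAL4.

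On chromosome X, where no stretch was found at 0 FPKM, the run at 0.05 FPKM or less was interrupted by other genes with reads. ARMCX6, ARMCX3, TCEAL8 and TCEAL9 (101615118 to 103358462) followed each other among genes that the other 7 libraries express. ARMCX6 and TCEAL9 had no read in either EPCAM-high library, and ARMCX3 and TCEAL8 had 1 read in siWFDC21P-1 replicate 3 and none in siNC replicate 2. TCEAL8 had 18.0 to 22.5 FPKM in the other 7. BEX3, next on the right, had 0.132 and 0.0327 FPKM against 7.13 to 166 FPKM, and TCEAL4 beyond it had 39.5 and 32.8 FPKM, above the median of 28.9 FPKM of the others. The 17 genes listed inside this span had 1098 and 993 reads in all, against 2493 to 7368 reads, so unlike chromosome 16 the span was not empty. ARMCX and TCEAL genes form families of similar sequence, which can share reads.

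Among 14 tumour suppressor genes often deleted in tumours, 13 were tested, 2 were higher (CDH1, and BRCA2 with 10.4 and 9.41 FPKM against at most 2.86 FPKM), 1 was lower and the median difference was -0.26. The lower one was SMAD4, the common SMAD of TGF-beta signalling (chromosome 18, 51028394 to 51085045), with 0.0705 FPKM in siWFDC21P-1 replicate 3 (26 reads) and 0.0269 FPKM in siNC replicate 2 (10 reads), against 3.02, 3.43 and 4.23 FPKM as the lowest, median and highest of the others. ME2 and MEX3C, which lie on either side of it and were named after their values were seen, were not called. ME2 had 8.71 and 11.7 FPKM against 7.90 to 13.9 FPKM, and MEX3C had 5.12 and 8.49 FPKM against 2.00 to 10.4 FPKM. Other genes near SMAD4 are not given here. RB1 had 2.04 and 1.82 FPKM, below the 3.43 to 15.5 FPKM of the other 7 but short of the 1 log2 unit of the rule.

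The genes around the markers were read for shared levels. Beside EPCAM, the calmodulin gene CALM2 had 66.8 and 82.7 FPKM against 32.4 to 62.5 FPKM, higher in the EPCAM-high libraries by less than the rule asks. Beside CDH1, CDH3 with its 27.7 and 19.4 FPKM lay just above the 19.1 FPKM of the highest other library. On the other side TANGO6 had 2.15 and 2.11 FPKM against 2.81 to 6.71 FPKM, and HAS3 had 1.33 and 4.66 FPKM against 0.438 to 92.7 FPKM, neither of them called. In the keratin clusters around KRT19 and KRT5, KRT14, KRT15 and KRT81 were called higher and KRT8, KRT17 and KRT18 were not, as given above. Neither KRT10-AS1 nor the pseudogene KRT87P was called, the latter with 2.88 and 4.45 FPKM against 0.168 to 3.87 FPKM. The clusters were thus not high as a block.

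The EPCAM-high libraries also differed from each other. Of 13014 genes, 263 were more than 1 log2 unit higher in siWFDC21P-1 replicate 3 and 240 more than 1 unit higher in siNC replicate 2, and among the 533 genes called higher these numbers were 18 and 18. The histone gene H2AC25 had the widest difference in favour of siWFDC21P-1 replicate 3, with 68.2 FPKM in siWFDC21P-1 replicate 3 and 6.95 FPKM in siNC replicate 2. CRYAB, a small heat shock protein of basal-like tumours, had 19.0 FPKM in siWFDC21P-1 replicate 3 and 2.60 FPKM in siNC replicate 2. In the other direction CPA4, a carboxypeptidase, had 3.37 FPKM in siWFDC21P-1 replicate 3 and 34.3 FPKM in siNC replicate 2, and the cell cycle inhibitor CDKN1A had 8.55 and 50.6 FPKM. RARRES1, a retinoid-responsive gene, had 71.0 and 327 FPKM in the pair, against at most 4.92 FPKM in the other 7. The 2 libraries carry different siRNAs and there is 1 of each, so these differences have no replicate check.

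Genes listed in the 5 style A files alone were compared with the other 3 libraries of that style. Of 7741 such genes 329 averaged 1 FPKM or more over the 5, of which 133 (40.4%) were higher and 97 (29.5%) lower. Of the genes in all files, 8.61% were higher and 6.31% lower against the same 3 libraries. Of the 133, 122 had under 1 FPKM in each of the other 3 and so passed the filter through the EPCAM-high libraries, and nothing is read from the larger share. AZGP1, a secreted zinc-binding glycoprotein, had 367 FPKM in siWFDC21P-1 replicate 3 and 285 FPKM in siNC replicate 2, against 0, 0 and 0.0380 FPKM. PI3, the epithelial protease inhibitor elafin, had 248 and 517 FPKM against at most 1.05 FPKM, and the skin kallikrein KLK5 had 43.7 and 73.8 FPKM against 0. From the basal keratin and basal-like lists came KRT6B at 21.3 and 49.9 FPKM, VGLL1 at 23.7 and 38.2 FPKM and GABRP at 42.6 and 14.9 FPKM, all against 0. On the lower side the cancer-testis antigen genes CTAG2 and PAGE1 had 0.0717 and 0.214 FPKM, and 0 and 0.0531 FPKM, in the EPCAM-high libraries, against at least 175 and 107 FPKM. The folate receptor gene FOLR1 had 12.9 and 14.3 FPKM against 209.6 to 331 FPKM.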

How the data were processed

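The authors deposited 1 table of FPKM for each of 9 libraries, with genes given as Ensembl identifiers. HTSeq 0.6.0, HISAT2 2.1.0, Bowtie2 2.2.3 and build hg38 are listed in the submitters' processing notes, with no role or order. Annotation release, gene length and strand handling are not given in the sources used here. With exon lengths from GENCODE 29, 95.8 to 96.5% of the low FPKM values of a library (below 20 reads) were whole reads to within 0.02 reads, which gave the reads and depths quoted. Of 26636 genes listed in all 9 files, 26459 matched GENCODE 29, which also gave symbols and positions, and 13014 averaged 1 FPKM or more over the 9 libraries.

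Values were compared on log2(FPKM + 1) by the gap between the sets of libraries, called at 1 or more. Fold changes on this scale are understated for low genes. A gene was absent at 0 FPKM in both EPCAM-high libraries with at least 1 FPKM in each of the others, and a stretch was 3 or more such genes in a row. Bounds on absent genes use 3 reads per library. Depth limits low values: 3 reads were worth 0.0163 FPKM for KDR in siWFDC21P-1 replicate 3 and 0.0280 FPKM in siNC replicate 3. No test was made, because a measured value chose the libraries.

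The members and the 17 gene lists (225 genes) were chosen with earlier results of these data known. Named genes were the 5 markers EPCAM, CDH1, KRT19, KRT5 and KDR, up to 4 tested members of each list with the widest gap, the 20 widest gaps on each side (no pseudogene, no RNA under 200 bases), the stretches with their flanks, the 10 highest absent genes outside them, and the markers' neighbours. Other list members, the microRNA hairpins, the genes that differ between the EPCAM-high libraries, ATP6V1B1, NMU, CALML5, KLK10, ME2 and MEX3C were named after their values were seen. The calling rules were checked on simulated libraries. Python 3.11.15, numpy 2.4.6, pandas 2.3.3, scipy 1.17.1 and matplotlib 3.10.9 were used.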

Additional observations from a re-analysis of the deposited data

How the results depend on the processing

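No paired analysis was possible because the EPCAM-high libraries were chosen by a measured value and no test was made. The 67 called genes among the named genes kept their sign and a gap of at least 1 under every alternative run. Many of these genes were named because their gaps were wide. Leaving out libraries, singly or by style, or lowering the pseudocount can only keep or widen a gap. Those runs are therefore no check on these calls. The 533 higher genes became 208 with a mean of at least 5 FPKM, 1046 against the same naming style, 1280 against the other style and 242 at a gap of 2, and 538 to 688 when 1 library was left out. The 292 lower genes became 478 with a pseudocount of 0.1, 440 with values rescaled to equal sums, 785 against the same style, 1007 against the other style and 105 at a gap of 2, and 297 to 373 when 1 library was left out. Of all calls 64.6% were higher, and 48.3% with a mean of at least 5 FPKM. The 30 absent genes became 71 at 0.05 FPKM or less, 49 and 8 where the others had to reach 0.5 and 5 FPKM, 171 where their mean had to reach 1 FPKM, 75 against the same style, 110 against the other style, 67 at 3 reads or fewer (added after the values were seen) and 30 to 46 when 1 library was left out. The single stretch of 3 genes on chromosome 16 became 2 at 0.05 FPKM or less, 2 with the mean rule, 2 at 3 reads or fewer (also added), 0 when 5 genes were needed and 1 to 2 when 1 library was left out. With the pseudocount of 0.1 list medians moved to 6.24 for adhesion, 5.15 for basal keratins, 2.60 for basal-like genes, 1.54 for luminal genes, 6.52 for regulators and -2.56 for mesenchymal genes. Rescaled to equal sums they were 5.43 for adhesion, 4.09 for basal keratins, 2.01 for basal-like genes and 5.48 for regulators, and with no filter the basal keratins were at 1.49. Against the same style they were 4.11 for adhesion, 0.57 for desmosomes, 0.56 for simple keratins, 3.71 for regulators, -0.28 for mesenchymal genes, -0.38 for endothelial genes and -0.27 for reference genes, the last 2 with their sign turned. Against the other style they were 4.50 for adhesion, 4.48 for simple keratins, 3.01 for basal keratins, 4.54 for regulators and -0.11 for luminal genes, whose sign turned. With median-ratio scaling regulators were at 3.93 and endothelial genes at -0.0225, again turned. With 1 library left out adhesion ran from 4.24 to 4.60, basal keratins from 2.25 to 3.16, regulators from 3.99 to 4.22 and endothelial genes from -0.0923 (without siNC replicate 2) to 0.24. The gaps of EPCAM, KRT19, KRT5, KDR and CDH1 were 10.24, 8.93, 4.93, 7.48 and 5.09 with the pseudocount of 0.1, and 9.17, 8.66, 4.38, 6.06 and 4.87 rescaled to equal sums. EPCAM was at 7.54 with median-ratio scaling, and KRT19, KRT5 and CDH1 at 8.79, 3.62 and 5.34 against the same style. With 1 library left out they ran from 7.61 to 7.74 for EPCAM, 7.99 to 8.95 for KRT19, 3.33 to 3.68 for KRT5, 4.34 to 4.72 for KDR and 4.34 to 4.81 for CDH1. The causes were not tested.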
